A study of Mus musculus with 14 samples.

Results

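The nuclear genes of oxidative phosphorylation were followed in mouse splenic B cells cultured with BAFF, a cytokine that mature B cells need for survival. The genes were chosen by name, as protein-coding genes whose symbols start with Ndufa, Ndufb, Ndufc, Ndufs, Ndufv, Uqcr, Cox4, Cox5, Cox6, Cox7, Cox8 or Atp5, or are Sdha, Sdhb, Sdhc, Sdhd or Cyc1. A mean level of at least 1 CPM (reads of a gene relative to the scaled library total) over the 14 libraries was also required. Of 94 protein-coding genes with such names, 86 reached that level, out of 39179 gene IDs in the tables, and all 86 were among the 12630 genes that passed the filter on low counts. They comprise 44 genes of complex I (7 core subunits, 29 accessory subunits and 8 assembly factors), 4 of complex II, 9 of complex III, 14 of complex IV and 15 of complex V. Just inside the threshold stood Cox7a1 at a mean of 1.19 CPM and Cox6b2 at 1.97 CPM, and just outside it Atp5l at 0.560 CPM and Atp5g2 at 0.538 CPM.

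The cells were follicular B cells, which circulate between spleen, lymph nodes and blood, isolated with a magnetic kit from the spleens of C57BL/6 mice of 3 genotypes. Double knockout cells (dbko, relb-/-crel-/-) are labelled as knockouts of the NF-kB subunits RelB and c-Rel, single knockout cells (cko, crel-/-) as knockouts of c-Rel, and the third genotype is wild type (wt). All cultures received BAFF at 50 ng per ml. Every genotype was sampled at 0h and after 6h, and wt also after 27h, which gives 7 groups of 2 libraries (n = 2 per group throughout). No culture without BAFF was analysed here, so an effect of BAFF and an effect of time in culture cannot be told apart. The labels do not state whether both libraries of a group stem from different mice, and p-values therefore measure only the spread between these libraries, which may be technical.

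Oxidative phosphorylation makes ATP at the inner membrane of mitochondria. Complex I (NADH dehydrogenase) and complex II (succinate dehydrogenase) pass electrons to ubiquinone, complex III hands them to cytochrome c, and complex IV (cytochrome c oxidase) passes them to oxygen. Protons are pumped out by complexes I, III and IV and flow back through complex V, the ATP synthase. Most subunits are encoded in the nucleus, and a few core subunits of complexes I, III, IV and V are encoded in mitochondrial DNA. Naive B cells are small resting cells, and activated lymphocytes are known to enlarge their mitochondrial content.

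Nuclear genes of the respiratory chain are textbook targets of NRF1, of GABP, a factor of the ETS family, and of YY1. The promoter windows of 4 members described further on are shown because 3 of them hold the letters of such motifs, while that of Cox7a1, the member with the largest rise in wt, holds none of the letters searched. Each window runs from 250 bases before to 50 bases after the start of the gene (RefSeq, GRCm38.p6), written 5′ to 3′ on the gene's strand. Capitals mark matches to GCGCATGCG (NRF1) or CCGGAAG (ETS family) on either strand. The NRF1 letters overlap their own reverse complement, so GCGCATGCGC matches on both strands.
Uqcr11, chr10:80406772-80407071, minus strand: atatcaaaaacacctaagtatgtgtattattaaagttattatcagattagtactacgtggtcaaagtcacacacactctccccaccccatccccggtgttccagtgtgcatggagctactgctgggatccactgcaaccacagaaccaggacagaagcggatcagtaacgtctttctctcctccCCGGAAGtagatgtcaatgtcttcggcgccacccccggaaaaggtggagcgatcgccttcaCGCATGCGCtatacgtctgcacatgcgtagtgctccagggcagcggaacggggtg
Atp5k, chr5:108434350-108434649, minus strand: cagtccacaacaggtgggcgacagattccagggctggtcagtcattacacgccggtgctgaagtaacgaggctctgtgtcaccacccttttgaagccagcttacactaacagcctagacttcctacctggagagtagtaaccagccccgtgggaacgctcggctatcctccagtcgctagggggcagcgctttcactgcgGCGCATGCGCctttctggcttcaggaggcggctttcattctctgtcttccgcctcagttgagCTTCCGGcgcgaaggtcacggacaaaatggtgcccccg
Ndufaf4, chr4:24897833-24898132, plus strand: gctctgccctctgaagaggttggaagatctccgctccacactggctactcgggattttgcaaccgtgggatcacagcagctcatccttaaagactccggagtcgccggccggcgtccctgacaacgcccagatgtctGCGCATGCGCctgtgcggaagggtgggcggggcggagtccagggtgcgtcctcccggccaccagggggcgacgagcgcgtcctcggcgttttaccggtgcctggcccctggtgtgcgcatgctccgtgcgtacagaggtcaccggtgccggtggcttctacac
Cox7a1, chr7:30183921-30184220, plus strand: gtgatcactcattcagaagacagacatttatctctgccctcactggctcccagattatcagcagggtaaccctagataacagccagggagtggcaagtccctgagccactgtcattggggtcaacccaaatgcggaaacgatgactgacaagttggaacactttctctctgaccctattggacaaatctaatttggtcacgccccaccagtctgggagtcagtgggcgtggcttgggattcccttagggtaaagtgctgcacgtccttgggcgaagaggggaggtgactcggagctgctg
Uqcr11 and Atp5k, small subunits of complexes III and V, hold both motifs, and Ndufaf4, an assembly factor of complex I, holds the NRF1 letters. RefSeq promoters were matched by symbol for 70 of the 86 members, with 75 windows in all. The NRF1 letters stood in 10.7% of the members' windows, against 3.66% of the windows of genes tested and 1.75% of all windows. CCGGAAG stood in 22.7% of the members' windows, against 18.1% of those of genes tested and 8.86% of all windows. The letters AAGATGGC, searched on both strands for YY1, stood in 13.3% of the members' windows, against 4.59% of those of genes tested and 2.75% of all windows. A match describes the letters in the window, and no binding was measured.

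Gene counts summed to 10497802 to 11888765 per library. Rel lay at 40.0 to 61.4 CPM in dbko and 52.4 to 111 CPM in cko, against 621 to 683 CPM in wt at 0h and 6h. Relb lay at 53.0 to 88.4 CPM in dbko and 159 to 195 CPM in cko, against 115 to 164 CPM in wt at those times. In wt after 27h Rel stood at 197 to 198 CPM and Relb at 63.9 to 66.4 CPM, the second within the dbko range. The counts are per gene and do not tell reads inside a deleted part from reads outside it. The 6 B cell markers summed to 8976 and 9157 CPM in wt at 0h, 4973 and 4923 after 6h and 5845 and 6056 after 27h, and to 5143 to 8710 CPM in the knockouts. The follicular markers Fcer2a and Cr2 summed to 1937 and 2002 CPM in wt at 0h, 799 and 752 after 6h and 446 and 473 after 27h, to 852 and 1663 in dbko and 2052 and 2096 in cko at 0h, and to 288 and 311 in dbko and 533 and 471 in cko after 6h. They are thus lower after 6h than at 0h in all 3 genotypes. T cell, NK cell and neutrophil markers each summed to at most 21.9 CPM. Marginal zone B cell markers summed to 106 to 500 CPM in dbko, 257 to 358 CPM in cko and 173 to 291 CPM in wt. Plasma cell markers summed to 224 to 462 CPM in dbko, 200 to 204 CPM in cko and 184 to 273 CPM in wt. The 8 macrophage markers summed to 81.4 to 237 CPM in dbko, 26.6 to 37.8 CPM in cko and 34.8 to 168 CPM in wt, and the 6 erythroid markers to 81.4 to 1029.8 CPM in dbko, 3.69 to 45.1 CPM in cko and 0.732 to 7.84 CPM in wt. In bulk RNA, fewer cells of a type and less RNA per cell cannot be told apart. The 2 libraries of a group differed by more than counting noise in all 7 groups, with a mean chi-square per gene (1 with counting noise alone) of 30.9 and 36.2 in dbko at 0h and 6h, 21.4 in cko at 6h, and 2.84 to 4.66 in wt and in cko at 0h.

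Summed over the 86 members, the level in wt was 7100 and 7064 CPM at 0h, 5900 and 6275 after 6h, and 8225 and 7947 after 27h, without overlap between the 3 times. In dbko it was 6190 and 6945 CPM after 6h, against 7788 and 6646 at 0h, and in cko 5702 and 7175 CPM after 6h, against 6609 and 6591 at 0h. In both knockouts the values of the 2 times overlap. Complex V contributed most, with 39.3 to 42.4% of the sum in each library, ahead of complex I with 23.9 to 26.8%, complex IV with 13.0 to 15.7%, complex III with 11.3 to 13.1% and complex II with 6.83 to 8.64%. The share of complex IV was lower in every library of 6h, at 13.0 to 14.1% over the 3 genotypes, than in every library of 0h, at 14.4 to 15.7%.

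**Figure D1:**
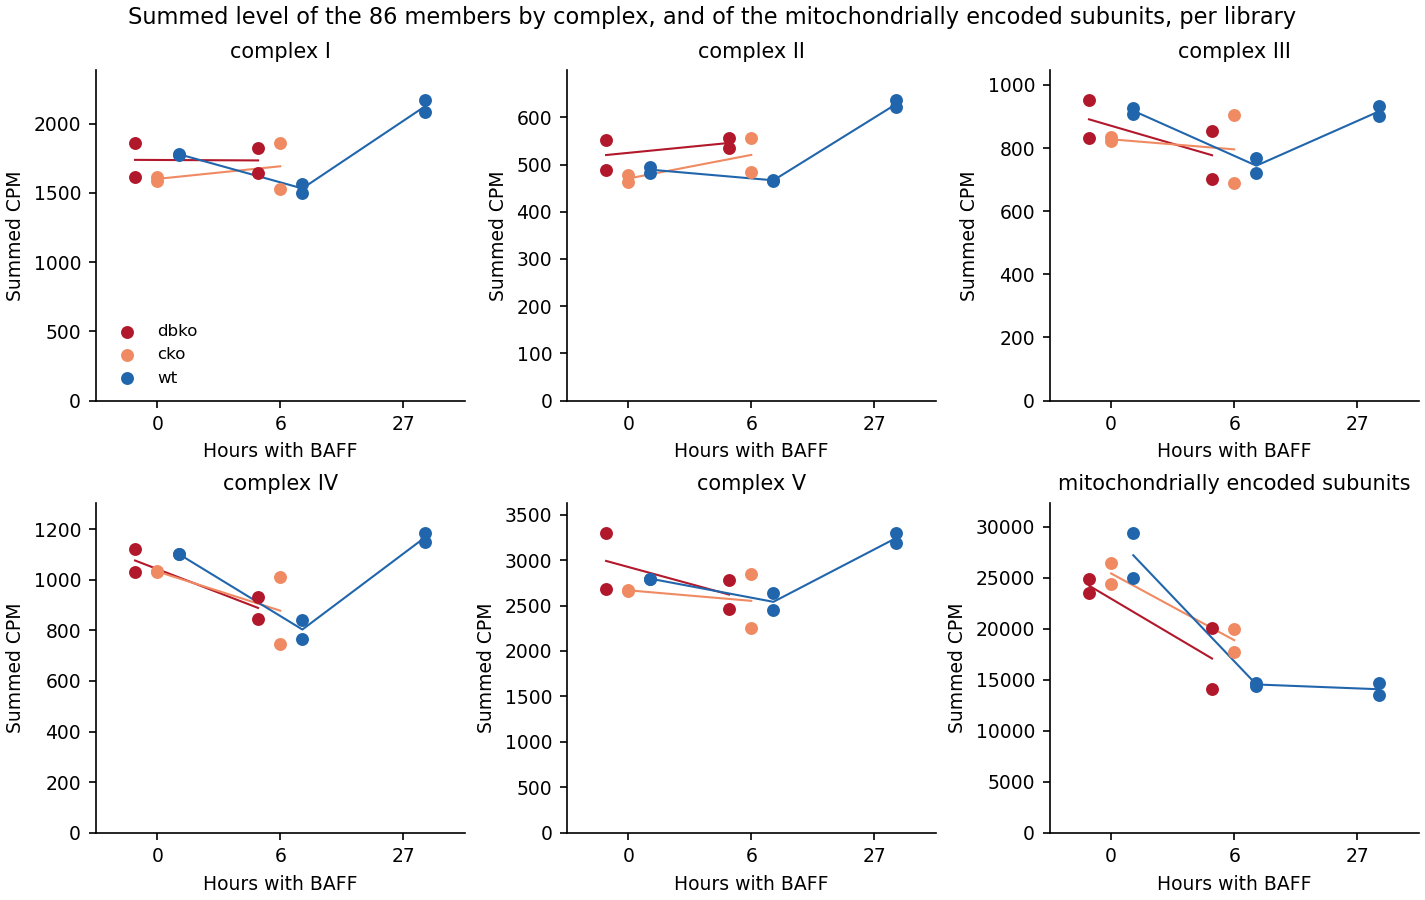
Summed level in CPM (y axis) of the members of each complex, and of the 13 mitochondrially encoded subunits, against hours with BAFF (x axis, times evenly spaced), with 1 point per library and lines through group means. In wt, the sums of all 5 complexes are lower at 6h than at 0h and higher at 27h than at 6h, while the mitochondrially encoded sum lies between 13474 and 14729 CPM at both 6h and 27h.

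Per kilobase of exon, which allows genes to be compared, the levels of members spread widely within each complex. The highest mean belonged to Atp5a1, the alpha subunit of the catalytic F1 head of ATP synthase, at 257 CPM per kilobase, and the lowest to Atp5g1, 1 of 3 genes for the same ring subunit c, at 0.465 CPM per kilobase. Medians were 65.0 CPM per kilobase for complex IV, 53.05 for complex II, 48.7 for complex V, 47.8 for complex III and 21.3 for complex I, where the assembly factor Ndufaf2 was lowest at 2.01. The most reads in complexes II to V, a measure that also grows with transcript length, fell to Atp5b (the catalytic beta subunit) in complex V at a mean of 941 CPM, Sdha (the flavoprotein of succinate dehydrogenase) in complex II at 277, Cox4i1 (a regulatory subunit) in complex IV at 249.7 and Uqcrc2 (a core protein) in complex III at 196. Members varied less between groups than genes at large: the range of the 7 group means had a median of 0.68 on the log2 scale over members, against 0.92 over all genes tested. The genes were not matched on level, and the part of level in this difference was not tested. The lowest of the 7 group means was that of wt at 6h for 41 of the 86 members, and the highest was that of wt at 27h for 59. The same counts were not made over all genes tested, so they do not set the members apart from other genes.

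The tissue-specific isoforms under the threshold stood at or near 0, while Cox7a1 and Cox6b2, described further on, lie above it. Cox8b, Cox8c and Cox7b2, isoforms of muscle or testis, had no count in any of the 14 libraries, which allows up to 0.286 CPM in the shallowest (3 counts). Means over libraries were 0.0316 CPM for Ndufa4l2 (the hypoxia-induced relative of Ndufa4), 0.0582 CPM for Cox4i2 (the lung isoform of subunit 4) and 0.340 CPM for Cox6a2 (the heart and muscle isoform of subunit 6a). Of the 3 genes for subunit c, Atp5g3 had a mean of 74.2 CPM per kilobase (131 to 201 CPM across libraries), Atp5g1 the 0.465 CPM per kilobase given above (1.05 to 3.14 CPM across libraries), and Atp5g2 was under the threshold. Reads that align to more than 1 place are outside the counts, which lowers genes with near copies: 38.3% of the 50-base words of Atp5g2 and 11.1% of those of Atp5g1 recur in other annotated genes. The share was 64.1% for Ndufaf2, 41.6% for Atp5o, 31.6% for Ndufb6, 28.5% for Ndufa13, 25.5% for Uqcrb, 22.1% for Cox7c and 21.7% for Ndufs5, whose levels are therefore uncertain, while 37 of the 86 members share no such word.

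In wt after 6h, more members were lower than higher: 25 of 86 fell and 3 rose relative to 0h, and 58 were not called (edgeR's quasi-likelihood test, Benjamini-Hochberg adjusted over all genes tested). Of all genes tested, 46.2% were called in this comparison, 23.5% lower and 22.6% higher, against 29.1% and 3.49% of the members. The share that fell is near the background, and the share that rose is under it. The median log2 fold change was -0.21 over members and -0.00 over all genes tested. By complex, 11 of 44 members of complex I fell, 1 of 4 of complex II, 3 of 9 of complex III, 7 of 14 of complex IV and 3 of 15 of complex V. All 3 that rose act in complex I, and 2 of these are assembly factors.

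Cox7a2l, counted here with complex IV, had 155 and 149.8 CPM at 0h, 66.7 and 69.9 after 6h, and 73.0 and 71.4 after 27h in wt. Its libraries of 6h and 27h lie far under both of 0h, with log2 fold changes against 0h of -1.16 ± 0.16 after 6h (adjusted p = 9.65e-05) and -1.08 ± 0.16 after 27h (adjusted p = 0.00014). Uqcrh, the hinge protein of complex III that helps dock cytochrome c, had 218 and 198 CPM at 0h, 92.9 and 103 after 6h, and 146 and 140.2 after 27h. The 3 times do not overlap, and Uqcrh fell by 1.08 ± 0.15 on the log2 scale after 6h (adjusted p = 0.00012). Ndufb11, an accessory subunit in the membrane arm of complex I, had 87.9 and 88.3 CPM at 0h, 45.9 and 50.2 after 6h, and 56.7 and 62.5 after 27h, and fell by 0.87 ± 0.15 after 6h (adjusted p = 0.000478). For Uqcrh and Ndufb11 alike, the libraries of 27h stand above those of 6h and under those of 0h. Atp5c1, the rotating central stalk of the F1 part, had 205 and 195 CPM at 0h, 114 and 117 after 6h, and 186 and 186 after 27h. It fell by 0.79 ± 0.11 after 6h (adjusted p = 0.000117), and its levels after 27h lie between those of the other times. The assembly factor Ndufaf8, a partner of Ndufaf5, had 8.96 and 9.97 CPM at 0h, 4.94 and 3.91 after 6h, and 7.82 and 7.43 after 27h. Its fall of 1.10 ± 0.39 after 6h (adjusted p = 0.0356) was lost with any 1 of the 4 libraries left out, with adjusted p-values of 5.04e-05 to 0.181 over its alternatives.

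Among the core subunits of complexes II and III, Uqcrfs1 (the Rieske iron-sulfur protein of complex III) fell by 0.64 ± 0.17 after 6h (adjusted p = 0.00771). Sdhb, the iron-sulfur protein of succinate dehydrogenase, fell by 0.31 ± 0.12 (adjusted p = 0.0494), a call lost with any 1 library left out. Cox4i1 and Cox5b, nuclear subunits that surround the catalytic core of complex IV, fell by 0.55 ± 0.12 (adjusted p = 0.00254) and 0.67 ± 0.17 (adjusted p = 0.00655). The core subunits Ndufs1, Ndufs3, Ndufs7, Ndufs8, Ndufv1 and Ndufv2 of complex I were not called, with log2 fold changes between -0.28 and 0.27. Nor were Sdha (0.01), Cyc1 (0.22), Uqcrc1 (-0.01), Cox5a (0.31), Atp5a1 (-0.15) and Atp5b (0.11).

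The 3 that rose were Ndufab1, Ndufaf4 and Ndufaf1. Ndufab1, the mitochondrial acyl carrier protein, which is a complex I subunit and also serves lipoic acid synthesis, had 8.13 and 7.84 CPM at 0h, 19.6 and 19.96 after 6h, and 18.1 and 22.2 after 27h (1.31 ± 0.26, adjusted p = 0.00124 for 6h against 0h). Ndufaf1, an assembly factor for the membrane arm of complex I, had 8.75 and 11.5 CPM at 0h, 23.3 and 20.2 after 6h, and 22.2 and 23.7 after 27h (1.10 ± 0.18, adjusted p = 0.000381). Both stood at about the same level after 27h as after 6h. Ndufaf4, which acts early in complex I assembly with Ndufaf3, had 21.5 and 20.3 CPM at 0h, 47.1 and 48.2 after 6h, and 32.9 and 32.5 after 27h (1.19 ± 0.17, adjusted p = 0.000168). It is highest at 6h, with no overlap between the times.

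The count depends on the scaling and on single libraries. With library totals in place of TMM, 13 members fell and 8 rose, while the median of all genes moved to 0.18 and that of the members to -0.03. Leaving out 1 library gave 17 called members without the first and 18 without the second of 0h, and 13 without the first and 19 without the second of 6h. In each of these fits 12 of the 28 calls held, among them those of Cox7a2l, Uqcrh, Ndufb11, Atp5c1, Cox4i1, Ndufab1, Ndufaf1 and Ndufaf4. Reads outside annotated features made up 11.5 and 9.67% of reads after 6h, against 5.57 and 5.69% at 0h, and reads with more than 1 place 38.8 and 41.5% after 6h, against 49.9 and 49.4% at 0h. Macrophage markers summed to 34.8 and 35.1 CPM after 6h, against 166 and 168 CPM at 0h, with 7 of 8 lower and none at 0. Of the B cell markers 4 of 6 were lower as well, and so were both follicular markers tested. The part of these in the member levels was not tested.

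**Figure D2:**
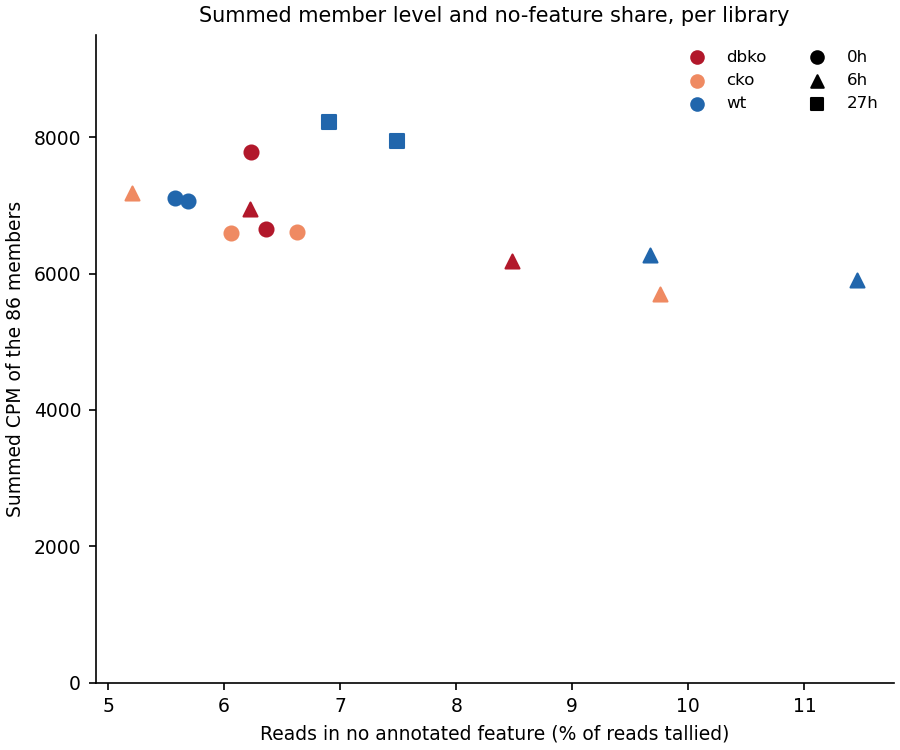
Summed CPM of the 86 members (y axis) against the percentage of tallied reads in no annotated feature (x axis), with 1 point per library, colours for genotypes and shapes for times. The 2 wt libraries of 6h and the first cko library of 6h have no-feature shares of 9.67 to 11.5% and sums of 5702 to 6275 CPM, and the wt libraries of 27h have sums of 7947 and 8225 CPM.

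Between 6h and 27h many of the members rose in wt: 46 of 86 were higher after 27h than after 6h and 2 were lower, with a median log2 fold change of 0.54, against 0.01 over all genes tested. In this comparison 34.1% of all genes tested were called, 15.9% higher and 18.2% lower, against 53.5% and 2.33% of the members. The share that rose is thus well above the background and the share that fell well under it. The rises were spread over the complexes: 21 of 44 members of complex I, 4 of 4 of complex II, 4 of 9 of complex III, 8 of 14 of complex IV and 9 of 15 of complex V. Within complex I, 19 of 29 accessory subunits and 2 of 7 core subunits rose, and of the 8 assembly factors none rose and 1 fell.

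Uqcr11, whose promoter window is shown above, had 19.5 and 18.1 CPM at 0h, 13.6 and 14.1 after 6h, and 32.1 and 29.4 after 27h in wt. Both libraries of 27h are above all others of wt (1.15 ± 0.26, adjusted p = 0.00593 for 27h against 6h). Ndufc2, an accessory subunit of the membrane arm of complex I, had 33.3 and 33.5 CPM at 0h, 24.7 and 25.99 after 6h, and 56.2 and 48.0 after 27h (1.04 ± 0.18, adjusted p = 0.000971). Atp5k, subunit e of ATP synthase, which takes part in pairing of the enzyme, had 36.7 and 35.7 CPM at 0h, 28.4 and 29.4 after 6h, and 52.8 and 55.0 after 27h (0.90 ± 0.15, adjusted p = 0.000732). Cox7a2, the ubiquitous isoform of subunit 7a, had 69.8 and 70.3 CPM at 0h, 43.9 and 46.8 after 6h, and 88.4 and 95.4 after 27h (1.02 ± 0.13, adjusted p = 0.000115). For each of these the libraries of 27h stand above those of 6h and 0h. In complex II, Sdhd, a membrane anchor, had 80.5 and 80.2 CPM at 0h, 80.1 and 74.1 after 6h, and 134 and 132 after 27h (0.78 ± 0.15, adjusted p = 0.00199). Sdha, with 267 and 259 CPM at 0h, 260.0 and 269 after 6h, and 319.5 and 318 after 27h, had a smaller rise of 0.27 ± 0.09 (adjusted p = 0.0413), a call lost with any 1 library left out. Of the 2 that fell, Ndufaf4 changed by -0.54 ± 0.17 (adjusted p = 0.0264, lost with any 1 library left out). The other is Cox7c, a small subunit of complex IV, with 7.92 and 6.97 CPM at 0h, 8.60 and 6.88 after 6h, and 3.48 and 5.75 after 27h (-0.74 ± 0.25, adjusted p = 0.0395, lost without the first library of 27h or either of 6h).

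The largest rise of any member in wt was that of Cox7a1, the heart and muscle isoform of subunit 7a. Its counts in wt were 4 and 4 at 0h, 6 and 7 after 6h and 46 and 75 after 27h, or 0.417 and 0.387 CPM at 0h, 0.549 and 0.594 after 6h, and 3.91 and 5.99 after 27h. The libraries of 27h lie far above the other 12, which reach at most 0.981 CPM. The rise was 3.09 ± 0.54 against 6h and 3.59 ± 0.59 against 0h on the log2 scale. Cox7a1 reached the threshold of 1 CPM and passed the filter on low counts through the libraries of 27h. A test of its rise therefore gives no support and is left out, though Cox7a1 is counted among the called members. Cox6b2, known as the testis isoform of subunit 6b, had 0.938 and 0.581 CPM at 0h, 0.366 and 1.19 after 6h, and 2.12 and 2.40 after 27h (1.51 ± 0.55, adjusted p = 0.0486 for 27h against 6h). That call is lost without either library of 27h or without the first of 6h.

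Against 0h, 36 members were higher and 4 were lower in wt after 27h, with a median log2 fold change of 0.32, against 0.00 over all genes tested. Here 47.6% of all genes tested were called, 23.0% higher and 24.6% lower, and the members' shares were 41.9% higher and 4.65% lower. In complex I 18 of 44 rose, in complex II 3 of 4, in complex III 3 of 9, in complex IV 8 of 14 and in complex V 4 of 15, none of these last in the F1 head. The 4 that fell were Cox7a2l, Cox7c, Ndufb11 and Uqcrh, of which the call of Cox7a2l alone held with any 1 library left out. Cyc1, the heme-bearing cytochrome c1 of complex III, had 88.6 and 92.2 CPM at 0h, 106 and 105 after 6h, and 134 and 139 after 27h in wt, with both libraries of 27h above the others (0.60 ± 0.14, adjusted p = 0.00459 for 27h against 0h). The comparisons with 0h and with 6h share the libraries of 27h and are not independent of each other.

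Single libraries moved both counts by over 1.5 times. Against 6h, 24 members were called without the first and 29 without the second library of 27h, and 25 without the first and 31 without the second of 6h, and 23 of the 48 calls held in each. Against 0h, 20 members were called without the first library of 27h, and 20 without the first and 23 without the second of 0h, and 14 of the 40 calls held in each fit. No-feature reads were 6.91 and 7.49% after 27h, between the shares at 0h and 6h, and their part was not tested. Macrophage markers summed to 65.5 and 69.3 CPM after 27h, against 34.8 and 35.1 CPM after 6h, with 2 of 8 called higher (Adgre1 and Lyz2), none lower and none at 0. The B cell markers Cd22 and Ms4a1 were also higher after 27h than after 6h, and of the follicular markers Fcer2a was lower. Their part in the member levels was not tested.

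**Figure D3:**
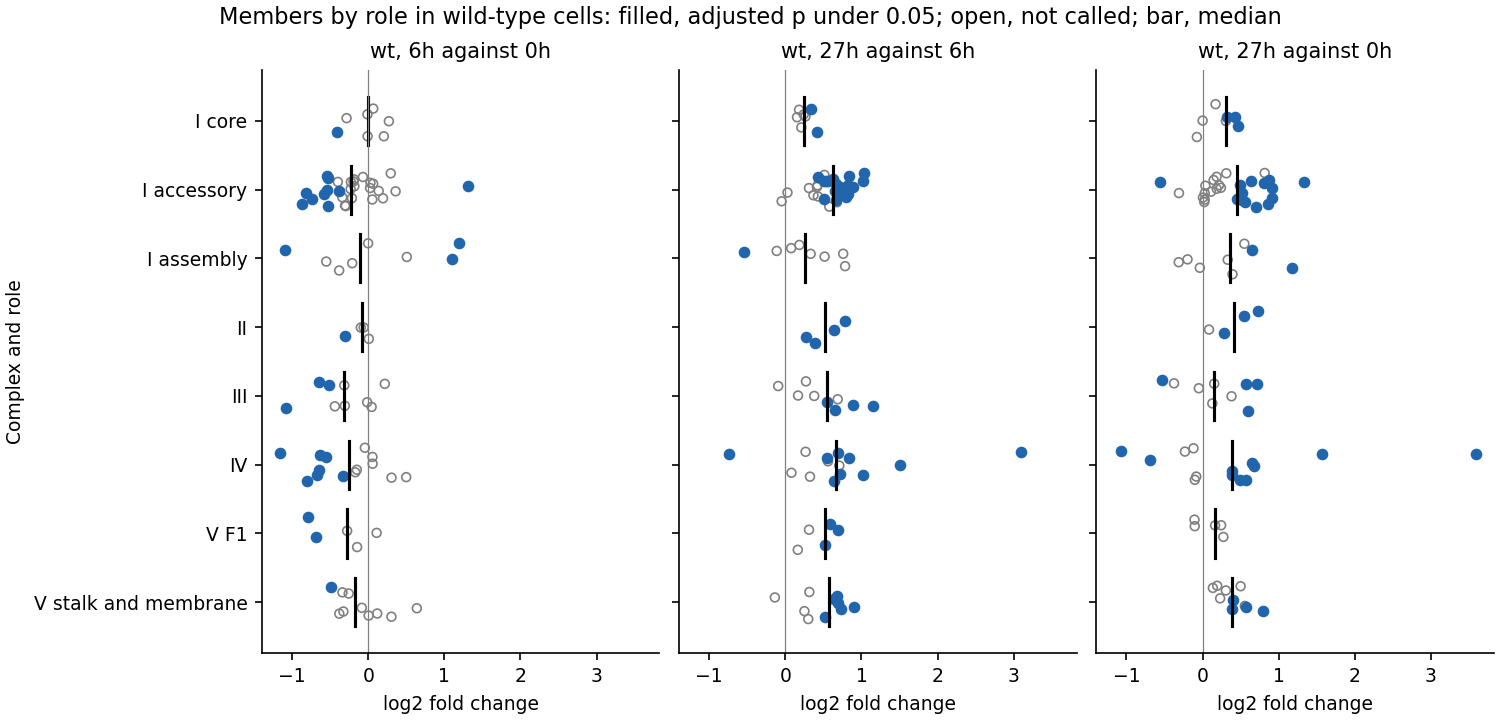
Log2 fold change (x axis) of each member by complex and role (y axis) in wt, for 6h against 0h, 27h against 6h and 27h against 0h. Filled points had an adjusted p under 0.05, and bars mark the median of a role. All roles have a median under 0 for 6h against 0h and above 0 for 27h against 6h, with the accessory subunits of complex I at 0.62 in the second.

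Other genes of the pathway did not all follow the nuclear subunits. Of the 13 mitochondrially encoded subunits, which lie in the membrane parts of complexes I, III, IV and V, 10 passed the filter, and 7 of these fell in wt after 6h, with a median of -0.78. After 27h 6 of the 10 were lower than at 0h, with a median of -0.94, and none was higher. Of all genes tested, 23.5% were lower after 6h and 24.6% after 27h, both against 0h. Their summed level in wt was 29442 and 24984 CPM at 0h, 14729 and 14363 after 6h, and 14678 and 13474 after 27h. The ratio of the nuclear to the mitochondrially encoded sum was 0.241 and 0.283 at 0h, 0.401 and 0.437 after 6h, and 0.560 and 0.590 after 27h, without overlap. Reads that align to more than 1 place are outside these sums, and near copies of the mitochondrially encoded genes were not searched. Such reads made up 49.9 and 49.4% at 0h, 38.8 and 41.5% after 6h, and 47.1 and 47.0% after 27h. Their part in the ratio was not tested. As examples, mt-Nd1, a subunit of the membrane arm of complex I, had 5727 and 4796 CPM at 0h, 2136 and 2029.8 after 6h, and 3501 and 3108 after 27h (-1.34 ± 0.19, adjusted p = 0.000113 for 6h against 0h). mt-Cytb, the cytochrome b of complex III, had 5899 and 5007 CPM at 0h, 2966 and 2726 after 6h, and 2451 and 2373 after 27h (-1.18 ± 0.17, adjusted p = 0.000111 for 27h against 0h). Both are highest at 0h.

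Of 76 tested proteins of the mitochondrial ribosome, which translates the mitochondrially encoded subunits, 13 rose and 8 fell after 6h, and 37 rose and 0 fell after 27h, both against 0h. Over all genes tested the shares were 22.6% higher and 23.5% lower after 6h, which puts both counts of 6h under the background, and 23.0% higher and 24.6% lower after 27h. Mrpl45, of its large subunit, had 45.7 and 47.0 CPM at 0h, 57.2 and 57.7 after 6h, and 97.1 and 92.7 after 27h in wt. It is higher at each later time, with 1.03 ± 0.13, adjusted p = 3.64e-05 for 27h against 0h. Of 13 enzymes of the citric acid cycle, 1 rose and 0 fell after 6h, and 7 rose and 1 fell after 27h against 6h, with a median of 0.40, where 15.9% of all genes tested were higher and 18.2% lower. Cs, the citrate synthase that opens the cycle, had 222 and 233 CPM at 0h, 238 and 247 after 6h, and 335 and 349 after 27h (0.50 ± 0.12, adjusted p = 0.00599 for 27h against 6h). Among 17 carriers and cofactor genes, 7 rose and 1 fell after 27h against 6h. One of these is Slc25a4, an ADP/ATP carrier, with 112 and 108 CPM at 0h, 56.5 and 64.5 after 6h, and 134 and 125 after 27h (1.10 ± 0.18, adjusted p = 0.000628 for 27h against 6h). It is lowest at 6h, as the summed members are.

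Assembly factors and regulators were set against the same background. Of 50 tested assembly factors, the 8 among the members included, 17 rose and 7 fell after 6h, and 10 rose and 3 fell after 27h against 6h. Of all genes tested, 22.6% were higher and 23.5% lower after 6h, and 15.9% higher and 18.2% lower after 27h against 6h. The share of assembly factors that rose is above the background after 6h and slightly above it for 27h against 6h. The share that fell is under it in both comparisons. Lrpprc, which stabilises mitochondrial mRNAs, had 74.9 and 78.0 CPM at 0h, 154 and 131 after 6h, and 151 and 145 after 27h in wt (0.90 ± 0.11, adjusted p = 6.01e-05 for 6h against 0h). Coa7, an assembly factor of complex IV, went the other way, with 53.5 and 52.1 CPM at 0h, 25.7 and 22.2 after 6h, and 21.7 and 21.2 after 27h (-1.14 ± 0.13, adjusted p = 2.95e-05). Of 20 regulators of mitochondrial biogenesis, 8 rose and 3 fell after 6h, and 0 rose and 8 fell after 27h against 6h. The share that rose after 6h and the share that fell after 27h are above those of all genes tested, and the others are under them. Pprc1, a coactivator of nuclear genes for mitochondria, had 81.8 and 77.7 CPM at 0h, 303 and 289 after 6h, and 161 and 176 after 27h (1.89 ± 0.28, adjusted p = 0.000298 for 6h against 0h). Gabpa, the DNA-binding subunit of GABP, had 95.5 and 100.1 CPM at 0h, 131 and 140.0 after 6h, and 94.5 and 90.4 after 27h (0.47 ± 0.10, adjusted p = 0.00236). Both are highest at 6h. By edgeR's quasi-likelihood test Nrf1 was not called after 6h against 0h (-0.22 ± 0.13, adjusted p = 0.197). It was lower after 27h than at 0h (-0.57 ± 0.13, adjusted p = 0.00392). Yy1 was not called after 6h (-0.06 ± 0.13, adjusted p = 0.755) or after 27h (-0.32 ± 0.13, adjusted p = 0.0701) against 0h. Tfam, which packages and transcribes mitochondrial DNA, had 132 and 126 CPM at 0h, 85.0 and 82.3 after 6h, and 87.3 and 83.8 after 27h (-0.62 ± 0.10, adjusted p = 0.000281), with no overlap between 0h and the later times.

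In both knockouts few members were called after 6h. In dbko 3 of 86 rose and 8 fell relative to 0h, with a median log2 fold change of -0.06 (0.03 over all genes tested), against a background of 39.6% of all genes tested, 19.3% higher and 20.3% lower. In cko 4 rose and 6 fell, with a median of 0.04 (0.05 over all genes), against a background of 41.9%, 21.8% higher and 20.1% lower. The members' shares of 12.8% in dbko and 11.6% in cko are well under those of genes at large. The dbko libraries and the cko libraries of 6h were less alike than those of wt. After 6h 65 of 86 members were higher in the second dbko library than in the first, by a median of 0.15 on the log2 scale, and 75 of 86 in the second cko library, by 0.33. At 0h 18 of 86 were higher in the second dbko library (median -0.26). Within lane 7, which holds the first libraries, the median member change after 6h was -0.25 in dbko and -0.17 in cko, and within lane 8 it was 0.13 in dbko and 0.16 in cko.

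The 3 genotypes share no library at these times, so their calls can be set side by side. Of the 11 members called in dbko, 9 were called in wt in the same direction (81.8% of the dbko calls and 32.1% of the wt calls), and of the 10 called in cko, 8 were (80.0% and 28.6%). Over all genes tested, 60.3% of the dbko calls and 72.4% of the cko calls were shared with wt in this way. Called in the same direction in all 3 genotypes were 8 members: Ndufab1 and Ndufaf1 rose, and Atp5c1, Cox7a2, Cox7a2l, Ndufb11, Uqcrfs1 and Uqcrh fell. Uqcrfs1 had 78.8 and 96.2 CPM in dbko after 6h, against 149.7 and 142 CPM at 0h (-0.74 ± 0.17, adjusted p = 0.00412), and 73.2 and 109 CPM in cko after 6h, against 132 and 147 CPM at 0h (-0.61 ± 0.17, adjusted p = 0.0116). All 4 knockout libraries of 6h are under all 4 of 0h. Ndufaf1 had 17.8 and 21.3 CPM in dbko after 6h, against 14.7 and 12.6 CPM at 0h (0.51 ± 0.18, adjusted p = 0.0352), and 24.1 and 24.5 CPM in cko after 6h, against 10.3 and 12.8 CPM at 0h (1.07 ± 0.18, adjusted p = 0.000464). Neither knockout overlaps between the times, and the difference between their rises was not tested.

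**Figure D4:**
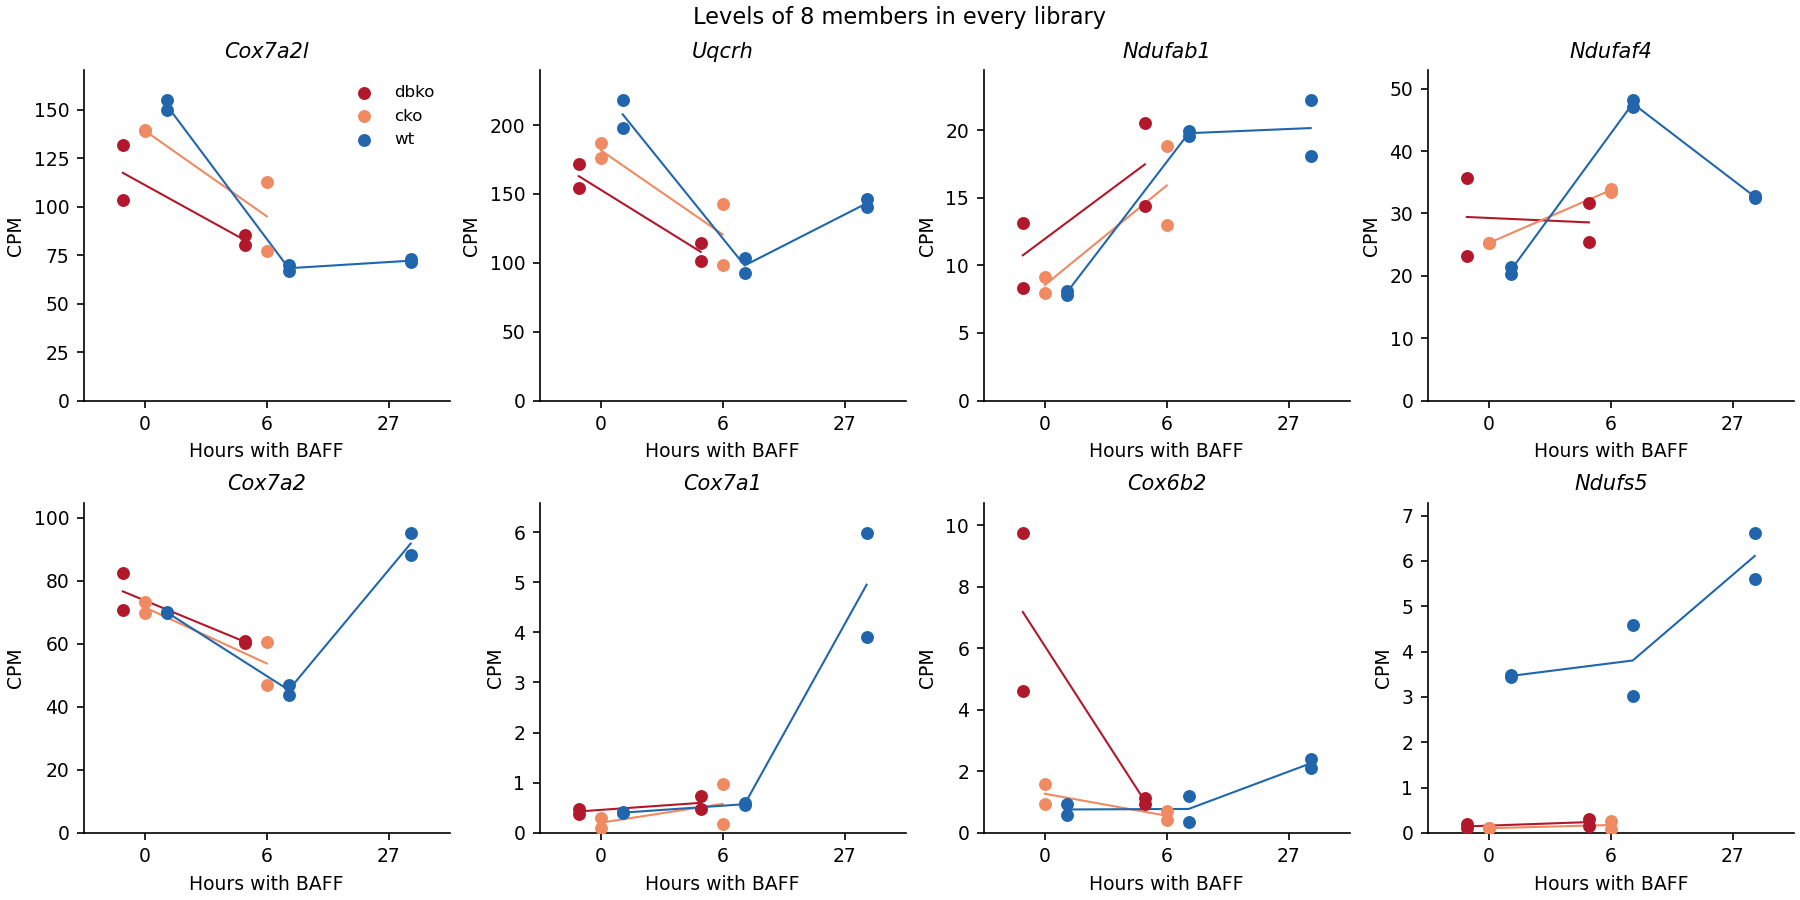
CPM (y axis) of 8 members in every library against hours with BAFF (x axis, times evenly spaced), with 1 point per library, lines through group means and colours for genotypes. By group mean, Cox7a2l, Uqcrh and Cox7a2 are lower and Ndufab1 is higher at 6h than at 0h in all 3 genotypes, Ndufaf4 peaks at 6h in wt, Cox7a1 reaches at most 0.981 CPM outside wt at 27h, Cox6b2 is highest in dbko at 0h, and Ndufs5 reaches at most 0.313 CPM in both knockouts.

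With single libraries left out, 4 of the 11 dbko calls held in each fit (Uqcrfs1, Uqcrh, Cox6c and Cox6b2), and 1 of the 10 cko calls (Ndufaf1). Over all alternatives only that of Cox6b2 held among the 4. Uqcrfs1 lost its call without the first dbko libraries of both times (adjusted p = 0.054) and Uqcrh with the compared groups fitted alone (adjusted p = 0.0736), and Cox6c was called in 10 of 13 alternatives, with adjusted p-values up to 0.16. The cko count was 3 without the first and 4 without the second library of 0h, and 18 without the second of 6h. With library totals in place of TMM the balance turned: 9 members rose and 3 fell in dbko, and 25 rose and none fell in cko, while the median of all genes moved to 0.23 in dbko and 0.27 in cko.

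Set against wt, the knockouts differed in few members. At 0h, 1 member was higher and 2 were lower in dbko, against a background of 11.7% of all genes tested, 7.1% higher and 4.55% lower. In cko at 0h Ndufs5 alone was called, as lower, against a background of 1.5%, 0.918% higher and 0.578% lower. After 6h, 10 members were higher and 2 lower in dbko, or 13.9% of the members, against 26.7% of all genes, 15.2% higher and 11.5% lower. In cko after 6h Ndufs5 alone was called again, against 3.54% of all genes, 1.58% higher and 1.96% lower, and 5 members were called there without the first cko library. The median log2 fold changes over the members were 0.07 in dbko and -0.13 in cko at 0h, and 0.15 in dbko and 0.11 in cko after 6h. Medians over all genes tested were 0.01 in dbko and -0.02 in cko at 0h, and 0.05 in dbko and 0.02 in cko after 6h.

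Ndufs5, an accessory subunit of complex I on the side of the intermembrane space, had very few counts in both knockouts. Its counts were 2 and 1 in dbko at 0h and 2 and 4 after 6h, and 1 and 1 in cko at 0h and 3 and 1 after 6h. In wt they were 33 and 36 at 0h, 33 and 54 after 6h and 78 and 70 after 27h. The 8 knockout libraries lie at 0.0817 to 0.313 CPM, and the 6 wt libraries at 3.02 to 6.63 CPM, far apart. Summed over a group and corrected for library size, the level in dbko was 0.0411 of that in wt (95% exact interval 0.0083 to 0.125) at 0h and 0.0622 of that in wt (95% exact interval 0.0222 to 0.141) after 6h. In cko it was 0.0296 of that in wt (95% exact interval 0.0035 to 0.111) at 0h and 0.0442 of that in wt (95% exact interval 0.0118 to 0.117) after 6h. These intervals cover counting error only. Ndufs5 reached the threshold of 1 CPM and passed the filter on low counts through the wt libraries. A test of its difference therefore gives no support and is left out, though Ndufs5 is counted among the called members. The same wt libraries serve both knockouts at each time. All mice are labelled C57BL/6, the labels do not state whether knockout and wt mice were littermates, and an effect of the deletions and another difference between the mice cannot be told apart. Ndufs5 lies on chromosome 4, and Rel and Relb on chromosomes 11 and 7. Within 1 Mb of Ndufs5 lie 17 tested genes. Against wt, 2 of these were higher and none lower in dbko at 0h, and 5 higher and 2 lower after 6h. In cko none was called at 0h and 1 was higher after 6h. Of all genes tested, 7.1% were higher and 4.55% lower in dbko at 0h, and 15.2% and 11.5% after 6h. In cko these shares were 0.918% and 0.578% at 0h, and 1.58% and 1.96% after 6h. This look at the neighbours was chosen after the values of Ndufs5 were seen.

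Cox6b2 was the 1 member higher in dbko at 0h, with 104 and 48 counts (9.77 and 4.60 CPM), against 9 and 16 (0.952 and 1.59 CPM) in cko and 9 and 6 (0.938 and 0.581 CPM) in wt. Both dbko libraries are above all others at 0h, with 3.23 ± 0.54, adjusted p = 0.00193 against wt and 2.48 ± 0.50, adjusted p = 0.00856 against cko, the second lost without the first dbko library or either cko library. After 6h it had 1.13 and 0.938 CPM in dbko, within the range of wt, and fell by 2.78 ± 0.50 against dbko at 0h (adjusted p = 0.000808). The 6 erythroid markers moved in the same way. All 6 were called higher in dbko than in wt and in cko at 0h, where 7.1% and 6.63% of all genes tested were higher. All 6 were called lower in dbko after 6h than at 0h, where 20.3% of all genes tested were lower. Their sum was 208 and 81.4 CPM in dbko after 6h and 1029.8 and 453 CPM in dbko at 0h, against 44.8 and 45.1 CPM in cko and 7.09 and 7.84 CPM in wt at 0h. Of the 6, Epb42 was at 0 in the first wt library of 0h and none was at 0 in the others of that time. Their part in the Cox6b2 level was not tested. The other member lower in dbko at 0h beside Ndufs5 was Ndufaf3, the partner of Ndufaf4, with 6.29 and 7.76 CPM, against 12.2 and 11.4 CPM in wt (-0.75 ± 0.22, adjusted p = 0.0424, lost without the first dbko library or either wt library). Without the second dbko library, 9 members were called in dbko at 0h against wt.

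Against cko, dbko at 0h had 3 members higher and none lower, where 9.03% of all genes tested were called, 6.63% higher and 2.39% lower. The median log2 fold change was 0.18 over members and 0.01 over all genes tested, within lanes 0.31 over members in lane 7 and -0.01 in lane 8. Beside Cox6b2 these were Sdhd, with 127 and 92.4 CPM in dbko, against 74.5 and 70.5 CPM in cko (0.60 ± 0.15, adjusted p = 0.0295), and Ndufv1, the core subunit that takes up electrons from NADH, with 102 and 85.3 CPM in dbko, against 76.1 and 68.1 CPM in cko (0.38 ± 0.11, adjusted p = 0.0468). Neither overlaps between the groups, but no member was called without the first dbko library or without either cko library, and 16 were without the second dbko library. After 6h no member was called between dbko and cko by edgeR's quasi-likelihood test or by DESeq2, where edgeR called 13.4% of all genes tested, 8.77% higher and 4.66% lower, and 3 members had an unadjusted p under 0.05. One library changed that: 2 members were called without the second dbko library, and 1 without the first or the second cko library.

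Most members called between dbko and wt after 6h were higher in dbko. Ndufb5, an accessory subunit of the membrane arm of complex I, had 56.0 and 63.2 CPM in dbko, against 41.3 and 40.4 CPM in wt (0.55 ± 0.14, adjusted p = 0.0115). Atp5k had 42.7 and 41.0 CPM in dbko, against 28.4 and 29.4 CPM in wt (0.54 ± 0.15, adjusted p = 0.0182), and the complex I subunit Ndufa11 had 26.8 and 30.4 CPM in dbko, against 19.0 and 21.6 CPM in wt (0.49 ± 0.15, adjusted p = 0.0294). The groups do not overlap for any of these 3. Among the others that rose, Ndufs8 is a core subunit of complex I, Ndufb3 and Ndufa9 are accessory ones, Sdhb and Sdhd belong to complex II and Cox7a2 to complex IV, with log2 fold changes of 0.38 to 0.48. Ndufaf4 was lower, with 25.5 and 31.7 CPM in dbko, against 47.1 and 48.2 CPM in wt (-0.74 ± 0.17, adjusted p = 0.00782). Of the 12 calls none held with any 1 library left out except that of Ndufs5, whose test gives no support. All 8 macrophage and all 6 erythroid markers were higher in dbko than in wt after 6h, where 15.2% of all genes tested were higher. The macrophage markers summed to 237 and 81.4 CPM in dbko and 34.8 and 35.1 CPM in wt. No marker of either list was at 0 in dbko. Their part in these differences was not tested.

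The change after 6h was compared between genotypes directly. Between dbko and wt 5 of 86 members differed in it, 3 with a higher and 2 with a lower change in dbko, against a background of 13.8%, 6.9% higher and 6.94% lower. Between cko and wt none did by edgeR's quasi-likelihood test or by DESeq2, against an edgeR background of 1.7%, 0.554% higher and 1.15% lower, with 12 members at an unadjusted p under 0.05. The median difference over the members was 0.15 between dbko and wt and 0.24 between cko and wt, against 0.05 and 0.05 over all genes tested. Ndufaf4 had 25.5 and 31.7 CPM in dbko after 6h, against 35.7 and 23.2 CPM at 0h, and 33.5 and 34.0 CPM in cko after 6h, against 25.3 and 25.3 CPM at 0h. The dbko groups overlap, while the wt groups given above lie apart, and the change of Ndufaf4 was lower in dbko than in wt by 1.23 ± 0.25 on the log2 scale (adjusted p = 0.00765). Ndufb5 (0.78 ± 0.19, adjusted p = 0.019) and Ndufs8, an iron-sulfur core subunit (0.69 ± 0.19, adjusted p = 0.0312), were among those that had a higher change in dbko than in wt, and Cox6b2 a lower one (-2.84 ± 0.81, adjusted p = 0.0359). Of the 5 only Ndufaf4 kept its call with any 1 library left out, and it lost it with the compared groups fitted alone (adjusted p = 0.0554). The count was 1 without the first and 1 without the second wt library of 0h, 2 without the first and 1 without the second of 6h, and 3 without the first dbko library of 0h. Between cko and wt 5 members were called without the first cko library of 6h.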

How the data were processed

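RNA from each library's cells was purified, reverse transcribed with poly-dT primers and made into Illumina TruSeq libraries, per the labels' protocols. The deposited values are raw counts of reads per Ensembl gene ID, 1 table per library. CASAVA 1.8.2 is named in the submitters' processing notes, and for the aligner, counter, genome build, annotation and strand setting the sources used here give nothing. The authors' tables tally reads with more than 1 place, in no feature or in several features apart (38.8 to 49.9%, 5.21 to 11.5% and 0.411 to 0.487% of reads tallied per library), and these stayed out of library sizes and tests. Of 39179 gene IDs, 37693 were matched to GENCODE M21 on GRCm38, with 99.6% of the gene counts.

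TMM scaling and a robust quasi-likelihood model with 1 mean per group (glmQLFit and glmQLFTest, edgeR 4.0.16, R 4.3.3) were applied to the 14 libraries together. After filterByExpr, 12630 genes were tested, 7 residual degrees of freedom remained, and the common biological coefficient of variation was 0.144. Tests were two-sided, with p-values adjusted by Benjamini and Hochberg over all genes tested, and calls needed an adjusted p under 0.05. CPM refer to TMM-scaled library sizes. The fit was tested on simulated counts, and the outcome is not given here. Ratios of low counts have exact binomial intervals at 95% (SciPy 1.17.1). Python 3.11.15, NumPy 2.4.6, pandas 2.3.3 and Matplotlib 3.10.9 did the rest.

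The members and all gene lists were chosen with earlier results of these data known. Genes are named by rule: per comparison up to 4 called members with the largest rise and up to 4 with the largest fall, the highest and lowest member of a complex, listed core and other subunits, isoform pairs, Rel and Relb, the nearest members at the threshold, and up to 3 called genes of a pathway list with the smallest adjusted p. Atp5k and Cox7a2 after 27h were picked after their values were seen, as was the grouping of members by whether they overlap. Nrf1 and Yy1 are named outside that rule, since their letters were searched in the promoters. Alternatives were DESeq2 1.42.0 with its own test, its size factors, library totals, no filter on low counts, the replicate number as a block (also within each genotype), fits of the compared groups alone, and fits without each library, in which the remaining library of a group is taken to vary as the others do. Fits without the first or the second dbko libraries at both times were added after seeing the data. Replicate numbers 1 and 2 follow lanes 7 and 8. Values of 1 member are not reported here, though all counts, sums and medians over the members include it.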

Additional observations from a re-analysis of the deposited data

Results flagged for a closer look

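In a test of the difference itself (edgeR's quasi-likelihood test, Benjamini-Hochberg adjusted over all genes), the 6h change of 5 members differed between dbko and wt. That is 5.81% of the members, under the 13.8% of all genes tested. Of the 5 calls, 0 held in every alternative run. Ndufaf4 had a difference of -1.23 on the log2 scale (adjusted p = 0.00765), with changes of -0.04 in dbko and 1.19 in wt. The difference was 0.78 for Ndufb5 (adjusted p = 0.019), which changed by -0.03 in dbko and -0.81 in wt, and 0.69 for Ndufs8 (adjusted p = 0.0312), which changed by 0.41 in dbko and -0.28 in wt. Cox6b2 had -2.84 (adjusted p = 0.0359), with -2.78 in dbko and 0.06 in wt. The erythroid markers also fell in dbko over this time, and their part was not tested. With 2 libraries per group, no single library could be tested for standing apart from its group.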

How the results depend on the processing

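Counts of called members stayed within 1.5 times of those reported with DESeq2 and with DESeq2 size factors in edgeR, and no fold change of a called member turned its direction under any alternative run. With the compared groups fitted alone the counts were 51 for wt 6h against 0h, 62 for wt 27h against 0h, 75 for wt 27h against 6h, 2 for dbko 6h against 0h, 8 for cko against wt at 0h, 1 for dbko against cko at 0h, 2 for cko against wt at 6h, 2 for dbko against wt at 6h, 3 for the change of cko against that of wt and 1 for the change of dbko against that of wt. With library totals they were 61 for wt 27h against 0h, 25 for cko 6h against 0h and 20 for dbko against wt at 6h, and the median of all genes moved to 0.18 for wt 6h against 0h, 0.30 for wt 27h against 0h and 0.13 for wt 27h against 6h. With no filter on low counts they were 5 for dbko against wt at 0h, 3 for cko against wt at 6h, 1 for dbko against cko at 6h and 1 for the change of cko against that of wt. With the first dbko libraries left out at both times they were 1 for dbko against cko at 0h, 20 for dbko against wt at 6h and 8 for the change of dbko against that of wt, and with the second left out 19 for dbko 6h against 0h, 22 for dbko against wt at 0h, 30 for dbko against cko at 0h, 19 for dbko against wt at 6h, 8 for dbko against cko at 6h and 9 for the change of dbko against that of wt. Leaving out 1 library gave 13 to 19 for wt 6h against 0h, 20 to 27 for wt 27h against 0h, 24 to 31 for wt 27h against 6h, 3 to 18 for cko 6h against 0h, 8 to 12 for dbko 6h against 0h, 1 to 1 for cko against wt at 0h, 2 to 9 for dbko against wt at 0h, 0 to 16 for dbko against cko at 0h, 1 to 5 for cko against wt at 6h, 1 to 7 for dbko against wt at 6h, 0 to 2 for dbko against cko at 6h, 0 to 5 for the change of cko against that of wt, 1 to 7 for the change of dbko against that of wt. With the replicate number as a block, the counts were 29 for wt 6h against 0h, 38 for wt 27h against 0h, 52 for wt 27h against 6h, 11 for cko 6h against 0h, 11 for dbko 6h against 0h, 4 for dbko against wt at 0h and 6 for the change of dbko against that of wt, and it moved no count by over 1.5 times. With a replicate block within each genotype they were 9 for dbko against wt at 0h, 10 for dbko against cko at 0h and 5 for dbko against cko at 6h. Same-numbered libraries deviated together (r over 0.1) in 4 of 21 pairs of groups, which are the 3 pairs among groups of 6h (r of 0.113 to 0.158) and dbko at 0h with dbko at 6h (r = 0.483), but not in the others, so the numbers were not taken to pair the libraries. The cause of these shifts was not tested. With 2 libraries per group and 7 residual degrees of freedom, small differences could not be called, and members with few counts (Ndufs5, Cox7a1 and Cox6b2) are imprecise.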
